A study of Mus musculus with 8 samples.

Results

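PLA is 1 of 4 mouse cell lines of lung squamous cell carcinoma (LUSC) that were set up from genetically engineered mice, and its 2 RNA-seq libraries were set against the 6 libraries of the lines PLA4, PL1 and PL12, 2 libraries per line. The series concerns loss of ACKR3. The labels give each library its line name and the words mouse LUSC. The alleles, any promoter or Cre driver, treatment, culture time and the age of the source mice are not given in the sources used here, nor are the letters of the line names spelled out. All 4 lines therefore share the tumour type and the species, and PLA stands for 1 line and not for a genotype. Whether the replicates of a line are separate cultures is not stated, so p-values reflect only how far these libraries spread, and that spread may be technical.

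A gene was kept where both PLA libraries lay above all 6 others, or both below, in CPM, that is, counts relative to the library total after TMM scaling. Of 55487 genes listed, 18648 were expressed enough to test, and 6753 of these (36.2%) were kept, 3685 with PLA above (19.8%) and 3068 with PLA below (16.5%). The test set PLA against the mean of the 3 other lines (edgeR's quasi-likelihood test, adjusted p by Benjamini-Hochberg over all genes tested, threshold 0.05), and log2 fold changes are given with their standard error. It called 6581 genes (35.3%), 3828 higher (20.5%) and 2753 lower (14.8%). A total of 5247 genes (28.1%) were both kept and called in the same direction, 2954 higher in PLA (15.8%) and 2293 lower (12.3%), and "rose" and "fell" are used of these alone. The separation and the test rest on the same values, so their overlap is a description of the line. Of the rest, 1506 genes were kept without passing the test and 1334 passed it without being kept. At the edge of the rule, Zbtb17, with 23.2 and 22.9 CPM in PLA against at most 22.9 CPM in the others, was just kept, though its call was lost without either PLA library, and Ppp4r3a, with 89.7 and 90.7 CPM in PLA against at least 90.7 CPM in the others, was just left out.

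Squamous carcinoma cells carry the programme of basal stratified epithelium, with the transcription factors p63 and SOX2 and a network of keratins and desmosomes. ACKR3 is an atypical receptor that binds and removes the chemokine CXCL12 and the peptide adrenomedullin without signalling through G proteins. Interferons act through JAK kinases, STAT factors and IRF9 to turn on antiviral genes and antigen presentation, and proliferating cells switch on genes of DNA replication through E2F factors and genes of mitosis through the MuvB complex with B-MYB and FOXM1. These are general roles and not results of these libraries.

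Depth ran from 48857960 to 142458281 counts per library, with 125621393 and 120258548 in PLA, and each library had between 12016 and 12507 genes at 1 CPM or more. A floor of 3 counts corresponds to 0.0208 to 0.0614 CPM and covers counting error only. The PLA libraries were close to each other, with 8 genes over 2-fold apart, against 1416 in PLA4, 1174 in PL1 and 64 in PL12. Replicate 2 of PL1 read the fibroblast gene Col1a1 at 254 CPM, against 0.575 CPM in replicate 1 of PL1. Summed over the listed fibroblast markers, PL1 had 198 and 386 CPM, PLA4 596 and 774 CPM and PL12 12.6 and 11.1 CPM. The mean log2(CPM + 1) of the tested markers was 3.55 in replicate 2 of PL1 and at most 1.98 in every other library. Without replicate 1 or 2 of PLA the line has 1 library that is assumed to vary like the other lines, and the genes kept and called numbered 815 or 835 higher and 658 or 657 lower. With counts summed per line, PLA against 3 lines, no gene was called by edgeR at all, while 1783 of 20829 genes (8.56%) had an unadjusted p under 0.05.

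Because the series concerns loss of ACKR3, its gene Ackr3 (ENSMUSG00000044337.5, chr1:90203980-90216751 in GRCm38) was read first. The labels give no Ackr3 genotype that its levels could check. Ackr3 had 0.0487 and 0.0254 CPM in PLA, against 0.387 and 0.228 CPM in PLA4, 86.3 and 33.2 CPM in PL1 and 25.3 and 26.3 CPM in PL12. PLA and PLA4 were thus low, and PLA lay under PLA4 as well. The difference from the mean of the 3 lines was -7.67 ± 0.659 on the log2 scale (adjusted p = 8.15e-04). Its ligand gene Cxcl12 was read at 0.00812 and 0.00846 CPM in PLA, which is 1 count in each library, and it passed the test with the 8 libraries but kept its call in 8 of 16 alternatives. Cxcl12 and Ackr3 fell together with Ramp3, which encodes a partner protein of the adrenomedullin receptor and changed by -1.63 on the log2 scale and did not pass without any 1 library of PLA or of PL12. Of the 9 tested genes among 16 listed for ACKR3 and its ligands, these 3 fell (33.3%, against 12.3% of all genes) and 0 rose. Of the 3, 1 fell without any 1 library of PLA or of PL12 and 2 without either library of PLA4, and 1 other rose without replicate 2 of PL1 or either library of PLA4.

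The squamous markers checked the tumour type. Trp63, which encodes p63, had 352 and 360 CPM in PLA, against a lowest of 26.3, a median of 340 and a highest of 386 CPM in the 6 others, so the groups overlap. Krt14, a basal keratin, had 3429 and 3288 CPM in PLA, and Dsg3, a desmosomal cadherin, 484 and 501 CPM. Sox2 had 27.6 and 25.2 CPM in PLA. All 4 were expressed in PLA. The test was passed in 15 of 16 alternatives by Trp63, in 13 by Dsg3 and by Sox2, and in 2 by Krt14. Levels of Krt14, Dsg3 and Sox2 in the other libraries are not given here. Krt5, the keratin partner of Krt14, rose, with 6542 and 6440 CPM in PLA against 284, 3726 and 5933 CPM as the lowest, median and highest of the others (1.81 ± 0.252, adjusted p = 0.00332). The label of a squamous line thus fits the PLA libraries by the presence of these markers.

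The genes that set PLA furthest apart were taken as the 15 higher and the 15 lower with the widest gap between the PLA libraries and the nearest other library. Slc47a1, a transporter that exports organic cations and drugs, led the higher side, with 97.7 and 89.8 CPM in PLA against 0, 0.0148 and 0.0485 CPM as the lowest, median and highest of the others (13.32 ± 0.176, adjusted p = 3.71e-05). The gene next to it, Slc47a2 (chr11:61301631-61342860), had 2.53 and 2.13 CPM in PLA and was at 0 in the 6 other libraries. Neither transporter gene passed 0.0485 CPM outside PLA.

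Gdf10, a secreted TGF-beta family ligand, had 55.8 and 52.8 CPM in PLA, against 0, 0.0247 and 0.361 CPM as the lowest, median and highest of the others (10.27 ± 0.826, adjusted p = 6.92e-04). Mmrn2, an extracellular matrix protein known from endothelium, had 37.2 and 37.6 CPM in PLA against 0.0276, 0.0822 and 0.141 CPM (9.04 ± 0.344, adjusted p = 2.61e-04). Sncg, gamma-synuclein, named here for its place near Gdf10 and Mmrn2 on chromosome 14, had 416 and 395 CPM in PLA, while the others ran from 0.165 to 43.2 CPM. The widest of these 3 separations was that of Mmrn2 when set against its highest other library, and in all 3 the groups stood apart.

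Other genes of the higher side encode surface and secreted proteins. Pdpn, podoplanin, a mucin-like surface protein of basal and invasive squamous cells, had 78.1 and 76.1 CPM in PLA against 0, 0.0172 and 2.18 CPM as the lowest, median and highest of the others (9.18 ± 1.33, adjusted p = 0.00383). Itgam, the integrin alpha M chain known from myeloid cells, had 51.5 and 48.1 CPM in PLA against 0.138, 0.677 and 1.00 CPM (6.33 ± 0.497, adjusted p = 6.68e-04). Psca, a small GPI-anchored protein of the Ly6 family, had 127 and 126 CPM in PLA against 0.127, 3.60 and 4.87 CPM. In each of these genes the highest of the 6 other libraries remained far under PLA. Ngfr, the p75 neurotrophin receptor and a marker of basal epithelial cells, had 34.3 and 36.3 CPM in PLA against 0.196, 0.696 and 1.26 CPM. The rest of the 15 were Upk3a, Snx20, Cyp2a5, Tmprss4, H2-Q7, Unc5a, Muc20 and Pde1c, with PLA between 12.1 and 146 CPM and no other library above 7.19 CPM. Muc20 alone of them lost its call in more than the summed counts: it missed the threshold without either library of PL12 or of PLA.

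On the lower side Fabp5, a fatty acid binding protein abundant in squamous epithelium, had 1.96 and 1.68 CPM in PLA, against 119, 269 and 498 CPM as the lowest, median and highest of the others (-7.14 ± 0.801, adjusted p = 0.00157). Celf2, a regulator of splicing, had 0.325 and 0.279 CPM in PLA against 23.2, 67.6 and 96.0 CPM (-7.78 ± 0.739). Sostdc1, a secreted antagonist of BMP and Wnt ligands, had 0.0975 and 0.0677 CPM in PLA against 10.6, 67.7 and 249 CPM (-9.20 ± 0.659). All 3 were expressed in each of the 3 other lines and nearly silent in PLA. Piezo2, a mechanically gated ion channel, had 0.0244 and 0.0339 CPM in PLA against 5.71, 20.9 and 67.1 CPM, and Dmd, dystrophin, had 0.0650 and 0.0592 CPM against 9.90, 13.8 and 15.3 CPM. Evl, a regulator of actin filaments, had 0.406 and 0.516 CPM in PLA against 26.1, 31.0 and 64.6 CPM. Of the 15 lower genes, 4 lie on the X chromosome (Tceal8, Dmd, Armcx3 and Prrg1), which holds 591 of the 18611 tested genes with a position and 94 of the 2293 that fell. The rest were Samd5, Epdr1, Arfgef3, Htr1b, Tenm3 and Mpdz, with at most 1.63 CPM in PLA and at least 5.01 CPM in every other library.

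**Figure D1:**
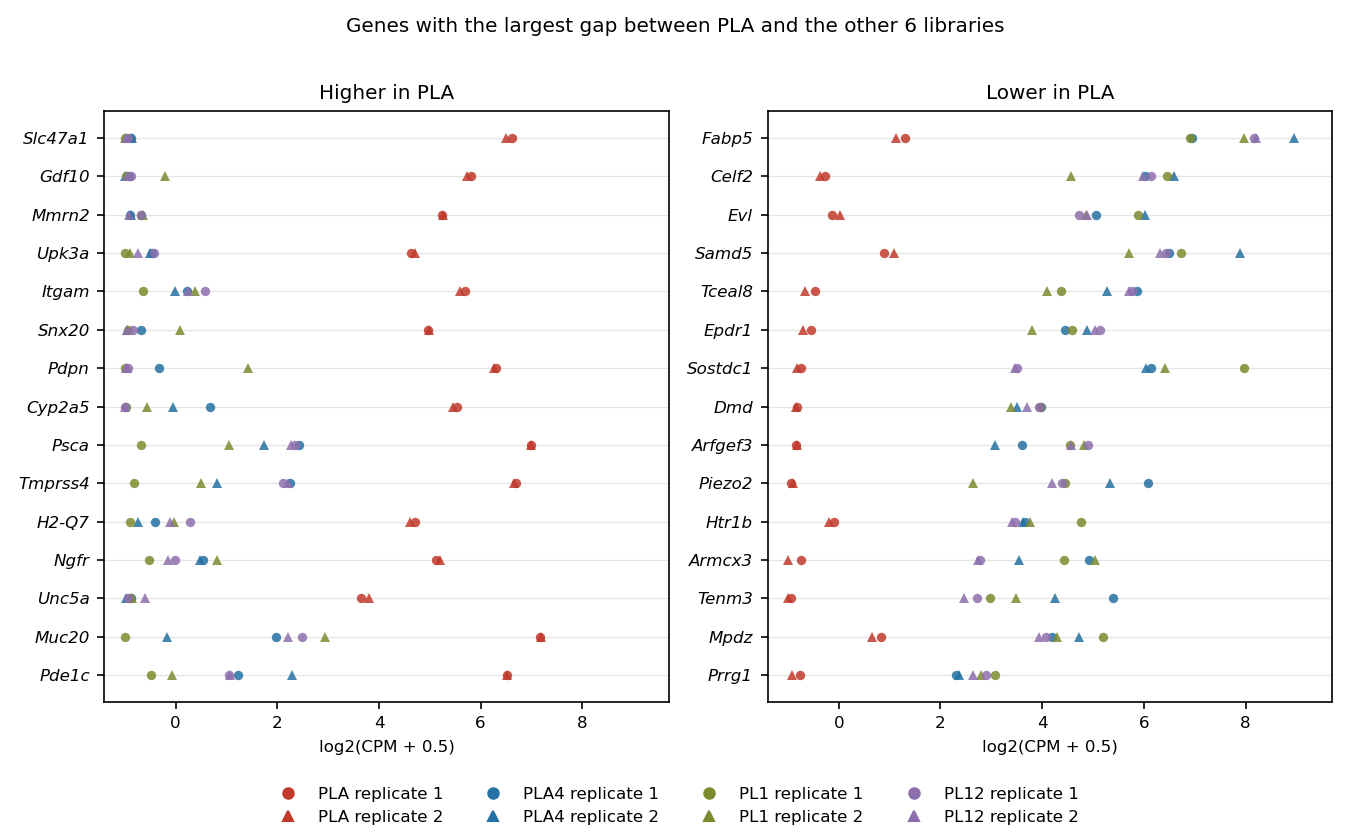
Levels of the 15 higher (left) and 15 lower (right) genes with the widest gap, as log2(CPM + 0.5) per library, coloured by line and shaped by replicate. The 2 PLA points nearly coincide in each row and stand clear of the 6 others, for example Slc47a1 at 97.7 and 89.8 CPM in PLA and Fabp5 at 1.96 and 1.68 CPM in PLA.

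A stricter view took genes read at 1 CPM or more in both PLA libraries and at 3 counts or fewer in each other library. There were 7, among them Reg3g, a secreted antibacterial lectin, at 3.60 and 2.92 CPM in PLA, and H2-Aa, the MHC class II alpha chain, at 3.41 and 3.03 CPM in PLA. Slc47a2, Tex13b, Cfap97d2 and 2 genes named only by clone, 5830444B04Rik and 2210407C18Rik, made up the rest. The converse held for 5 genes: Tenm3, Arhgap31, Sema6a, Gpr50 and Klf8. Klf8, a zinc finger transcription factor, had 0 and 0.00846 CPM in PLA and between 1.81 and 7.97 CPM in the others. The call of Gpr50 was lost without replicate 1 of PLA.

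The nearest other library differed by gene. For genes that rose, the highest other library was replicate 1 of PLA4 in 683 of 2954 (23.1%) and replicate 1 of PL1 in 232 (7.85%). It was replicate 2 of PLA4 in 16.2%, replicate 2 of PL1 in 20.4%, and replicates 1 and 2 of PL12 in 18.3% and 14.1%. For genes that fell, the lowest other library was replicate 1 of PLA4 in 724 of 2293 (31.6%) and replicate 1 of PL1 in 186 (8.11%). It was replicate 2 of PLA4 in 14.7%, replicate 2 of PL1 in 21.9%, and replicates 1 and 2 of PL12 in 9.59% and 14.1%. Against single lines, PLA was called higher in 2779 genes and lower in 2635 against PLA4, in 2684 and 2416 against PL1, and in 3804 and 3231 against PL12, in the same fit with the same PLA libraries. A gene was called in the same direction against each of the 3 lines in 948 cases higher and 1027 lower.

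Interferon-stimulated genes rose almost as a whole list in PLA. Of 49 tested members of 50 listed, 39 rose (79.6%, against 15.8% of all genes tested) and 0 fell, with a median log2 fold change of 2.66 against 0.02 over all genes. Averaged over the list, log2(CPM + 1) came to 6.39 and 6.34 in PLA, against 3.18 to 4.70 in the 6 others. The count of 39 became 7 or 5 without replicate 1 or 2 of PLA and 21 or 19 without replicate 1 or 2 of PL12. Both PLA libraries lay above all others in 46 of the 49.

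Isg15, a ubiquitin-like modifier, had 161 and 150 CPM in PLA, against 5.72, 14.6 and 38.3 CPM as the lowest, median and highest of the others (3.18 ± 0.598, adjusted p = 0.00913). Ifit3, an antiviral protein of the IFIT family, had 266 and 252 CPM in PLA against 4.28, 17 and 114 CPM (3.61 ± 0.635, adjusted p = 0.00731). Herc6, the mouse ligase for Isg15, had 73.1 and 72.0 CPM in PLA against 2.85, 5.56 and 8 CPM (3.75 ± 0.232, adjusted p = 4.42e-04). The PLA libraries lay above every other library in each. Isg15 and Ifit3 did not pass without either PLA library, and Herc6 passed without any 1 library. Reads of Ifit3 and of its near copy Ifit3b may be shared by the counting, so their single values are uncertain.

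The sensors and factors upstream moved unequally. Dhx58, the RNA sensor LGP2, had 26.1 and 25.4 CPM in PLA against 0.828, 2.02 and 3.17 CPM in the others (3.77 ± 0.373, adjusted p = 0.00109). Irf7, the factor that amplifies interferon transcription, had 284 and 277 CPM in PLA against 3.87, 23.4 and 72.2 CPM (3.36 ± 0.886), and did not pass without any 1 library of PLA or of PL12 or without replicate 1 of PL1. Sting1, the adaptor of cytosolic DNA sensing, rose by the most of the signalling genes named, with 19.6 and 18.5 CPM in PLA against 0.0415, 0.144 and 2.99 CPM (6.16 ± 0.278, adjusted p = 3.02e-04). Cgas, the enzyme that signals to it, fell, with 2.37 and 2.67 CPM in PLA against 4.94, 8.68 and 10.4 CPM (-1.62 ± 0.191, adjusted p = 0.00186). Over the list of interferons, their receptors and signalling, 8 of 23 tested members rose (34.8%, against 15.8% of all genes) and 1 fell (4.35%). No interferon gene listed passed 0.0508 CPM in any library, the level of Ifnb1 in replicate 2 of PLA. The 8 became 2 and 2 without a PLA library and 5 and 5 without a PL12 library.

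The interferon-induced GTPases, which coat and disrupt the vacuoles of intracellular microbes, followed. Of 16 tested members 11 rose (68.8%, against 15.8% of all genes) and 0 fell, with a median of 2.99. The 11 became 4 and 4 without a PLA library and 6 and 6 without a PL12 library. Igtp had 82.2 and 77.7 CPM in PLA against 3.43, 8.86 and 23 CPM in the others (3.02 ± 0.549, adjusted p = 0.00816), and did not pass without either PLA library. Gbp3, with 42.0 and 42.3 CPM in PLA, was passed by replicate 1 of PLA4 with 45.5 CPM and was not kept. The Tgtp1 and Tgtp2 genes are near copies and their single values are uncertain.

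Promoter sequences from RefSeq (GRCm38.p6, 250 bases before to 50 after the start) are shown for 2 of these genes because they hold the interferon-stimulated response element (ISRE), written here as GAAA, any 2 bases and GAAA again, and searched on both strands. Capitals mark its matches, and no match overlapped another motif searched here. Ifit3b is at chr19:34607707-34608006 on the plus strand and Oas3 at chr5:120777610-120777909 on the minus strand, each given 5′ to 3′ along its gene.
Ifit3b: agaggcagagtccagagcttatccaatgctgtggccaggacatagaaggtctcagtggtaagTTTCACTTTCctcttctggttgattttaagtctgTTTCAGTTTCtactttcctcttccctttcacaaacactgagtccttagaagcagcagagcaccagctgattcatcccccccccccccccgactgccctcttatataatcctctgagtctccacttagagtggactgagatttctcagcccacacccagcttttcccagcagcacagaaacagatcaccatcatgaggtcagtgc
Oas3: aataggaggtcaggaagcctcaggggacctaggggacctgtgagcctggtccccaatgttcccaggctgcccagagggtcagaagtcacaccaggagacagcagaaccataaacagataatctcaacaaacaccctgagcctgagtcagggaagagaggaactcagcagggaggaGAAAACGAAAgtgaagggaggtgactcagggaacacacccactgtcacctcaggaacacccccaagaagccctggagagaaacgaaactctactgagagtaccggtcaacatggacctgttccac
Ifit3b holds 2 matches and Oas3 1. Oas3, which makes the 2′-5′ oligoadenylate that activates RNase L, had 83.3 and 82.0 CPM in PLA (3.60 ± 0.609), and Ifit3b 84.7 and 80.5 CPM (3.24 ± 0.571). Neither passed without either PLA library. The motif was found in 17 of 37 listed interferon-stimulated genes with a promoter (45.9%) and in 10 of 11 GTPase genes (90.9%), against 3.68% of 12274 tested genes with a promoter and 3.44% of all 32851 windows. These matches are a description of letters in a window and not of bound sites.

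Genes of MHC class I presentation rose as well. Of 22, 17 rose (77.3%, against 15.8% of all genes) and 1 fell (4.55%, against 12.3%), with a median of 1.77. The mean log2(CPM + 1) was 7.16 and 7.11 in PLA and 4.44 to 5.71 in the others, and the 17 became 7 and 8 without a PLA library. H2-K1, a classical class I heavy chain, had 852 and 809 CPM in PLA against 13.5, 82.6 and 227 CPM as the lowest, median and highest of the others (3.41 ± 0.597, adjusted p = 0.00717). B2m, the light chain, had 1494 and 1348 CPM in PLA against 184, 370 and 571 CPM (1.98 ± 0.333). Both chains lay well above every other library, and neither passed without either PLA library. Tap1, which pumps peptides into the endoplasmic reticulum, had 79.0 and 76.2 CPM in PLA against 6.11, 18.8 and 23.9 CPM (2.27 ± 0.343, adjusted p = 0.00434). Psmb8, a subunit of the immunoproteasome, had 139 and 127 CPM in PLA against 0.305, 7.55 and 27.3 CPM (4.08 ± 0.905, adjusted p = 0.0158), and did not pass without any 1 library of PLA or of PL12. The member that fell was Calr, the chaperone calreticulin (-0.61 ± 0.113), which did not pass without either PLA library. H2-Q6 and H2-Q7 are near copies and their single values are uncertain.

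MHC class II genes, usually restricted to professional antigen-presenting cells, were also higher, at lower levels. Of 9 tested members of 13 listed, 7 rose (77.8%, against 15.8% of all genes) and 0 fell, with a median of 4.23. A gene expressed in PLA alone passes the filter, so such members entered the tested ones through PLA. H2-Aa, at 3 counts or fewer in each other library, was among them. The share and the median are therefore partly set by the filter. Cd74, the invariant chain, had 26.4 and 24.9 CPM in PLA against 0.0346, 0.311 and 1.37 CPM in the others (6.19 ± 0.650, adjusted p = 0.00131). H2-Ab1, a class II beta chain, had 30.5 and 28.9 CPM in PLA against 1.93, 7.36 and 23.7 CPM (2.19 ± 0.170, adjusted p = 6.58e-04). Ciita, the factor that turns these genes on, had 0.666 and 0.576 CPM in PLA against 0, 0.0172 and 0.0460 CPM (5.25 ± 0.475, adjusted p = 9.05e-04). All 3 stood above the other libraries, with PL1 the nearest for H2-Ab1.

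**Figure D2:**
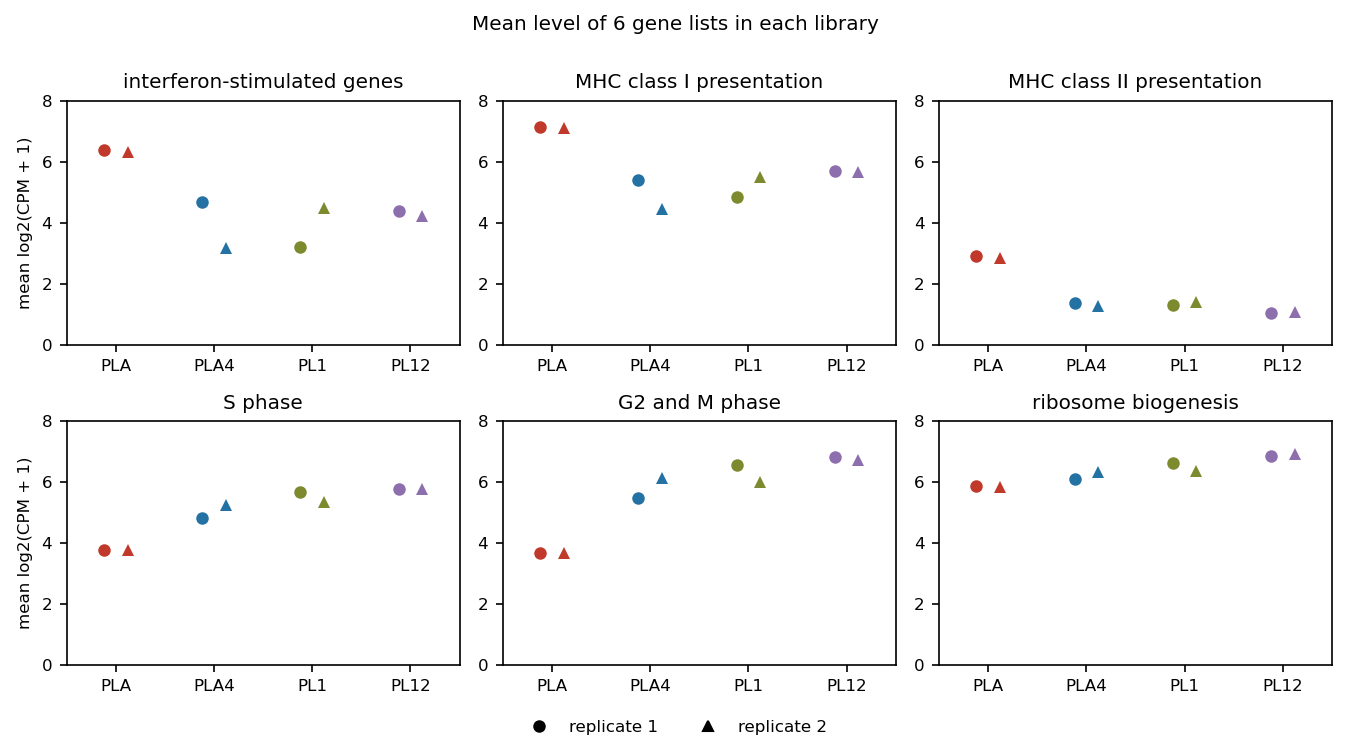
Mean log2(CPM + 1) over the members of 6 gene lists in each library, with the PLA libraries leftmost and then PLA4, PL1 and PL12. PLA stands at 6.39 and 6.34 against 3.18 to 4.70 for interferon-stimulated genes, and at 3.69 and 3.69 against 5.47 to 6.83 for genes of G2 and M phase.

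Markers of other cell types were read beside these immune genes. Of 28 listed myeloid markers 16 were tested. Of these, 4 rose (25.0%, against 15.8% of all genes), Itgam, Ccr2, Laptm5 and Coro1a, and 1 fell (6.25%, against 12.3%), S100a8. The summed level of the list was 1096 and 1139 CPM in PLA and 33.9 to 617 CPM in the others. The 4 became 2 and 2 without a PLA library, and the 1 became 2 without replicate 2 of PL1 or replicate 1 of PLA4. Of the listed markers, Ptprc, Tyrobp, Adgre1, Csf3r, Lyz2 and C1qa were at 0 in both PLA libraries and Spi1 was at 0.0244 and 0 CPM. The summed level thus came from other listed members, not all of which are named here. Coro1a and Laptm5 were the calls lost without either PLA library. Ccr2, a chemokine receptor, had 4.37 and 4.28 CPM in PLA (7.21 ± 0.622). Of 16 lymphoid markers 3 were tested and 2 rose (66.7%, against 15.8% of all genes). These were Cd4, with 0.877 and 1.41 CPM in PLA, and Lck, which kept its call in 6 of 15 alternatives. Cd3d, Cd3e, Cd3g, Cd2 and Nkg7 were at 0 in PLA. With so few tested, and with genes expressed in PLA alone passing the filter, nothing is read from this share. The 2 became 1 without any 1 library of PLA or of PL12 or without replicate 2 of PLA4. Their summed level was 1.94 and 2.34 CPM in PLA and 0.0115 to 0.388 CPM in the others. Endothelial markers summed to 3.31 and 3.85 CPM in PLA and 2.67 to 4.71 CPM in the others, with 0 of 6 up or down. Fibroblast markers summed to 79.3 and 71.0 CPM in PLA and 11.1 to 774 CPM in the others. Of 9 tested, 0 were up and 1, Col5a1, down (11.1%, against 12.3% of all genes). That call was lost without any 1 library of PLA or of PL12, 2 fell without replicate 1 of PL1, and 1 rose without replicate 2 of PL1. The part of these markers in the immune results was not tested beyond these levels. In bulk libraries, fewer cells of a type and less RNA per cell cannot be told apart.

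Genes of cell division were lower in PLA across the board. All 40 listed genes of G2 and M phase fell (100%, against 12.3% of all genes tested), with a median of -2.74, and between 37 and 40 did when any 1 library was left out. Of 44 genes of S phase, 40 fell (90.9%) and 0 rose, with a median of -1.92, and 29 to 43 fell with any 1 library left out, the lowest without a PLA library. Averaged over the genes of S phase, log2(CPM + 1) came to 3.78 and 3.78 in PLA, against 4.83 to 5.78 in the others. The lowest of the 6 other libraries thus lay more than 1 log2 unit above PLA in this list, and further above it in the list of G2 and M phase.

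Mki67, the Ki-67 antigen of cycling cells, had 43.4 and 45.8 CPM in PLA against 161, 359 and 567 CPM as the lowest, median and highest of the others (-3.00 ± 0.370, adjusted p = 0.00217). Ccnb1, cyclin B1, which starts mitosis with Cdk1, had 13.7 and 13.6 CPM in PLA against 85.2, 159 and 220 CPM (-3.50 ± 0.313, adjusted p = 8.83e-04). Cdk1 had 20.2 and 18.6 CPM in PLA against 86.0, 147 and 182 CPM (-2.80 ± 0.301, adjusted p = 0.00139). The transcripts were present in PLA, at levels under the lowest of the other libraries. Among replication genes, Mcm3, a subunit of the replicative helicase, had 21.7 and 21.6 CPM in PLA against 72.2, 137 and 183 CPM (-2.56 ± 0.169, adjusted p = 4.67e-04). Cdc6, which loads that helicase, had 4.81 and 4.26 CPM in PLA against 15.8, 24.7 and 38.1 CPM (-2.45 ± 0.130, adjusted p = 3.86e-04), and Pcna, the polymerase clamp, 109 and 106 CPM against 162, 210 and 268 CPM (-1.01 ± 0.124, adjusted p = 0.00214). Slbp, E2f1, Rrm2 and Rfc3 were the 4 listed S phase genes that did not fall by both criteria.

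Promoters of 3 of these genes are shown because they hold the motifs through which such genes are known to be regulated. Searched on both strands were 4 forms of the E2F site (TTTGGCGC, TTTCCCGC, TTTGCCGC and TTTCGCGC), the CCAAT box (CCAAT) and the cell cycle homology region or CHR (TTTGAA). Capitals mark the E2F matches in Mcm3 (chr1:20820263-20820562, minus strand) and the CCAAT and CHR matches in Ect2 (chr3:27153829-27154128, minus strand) and Kif4 (chrX:100625815-100626114, plus strand). None of the matches overlapped one of another motif.
Mcm3: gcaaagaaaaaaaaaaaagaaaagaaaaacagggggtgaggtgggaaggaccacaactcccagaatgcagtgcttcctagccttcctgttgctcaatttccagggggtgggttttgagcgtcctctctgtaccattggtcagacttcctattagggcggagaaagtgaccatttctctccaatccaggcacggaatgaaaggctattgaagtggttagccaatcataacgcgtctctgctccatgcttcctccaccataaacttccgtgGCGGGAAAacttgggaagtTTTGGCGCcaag
Ect2: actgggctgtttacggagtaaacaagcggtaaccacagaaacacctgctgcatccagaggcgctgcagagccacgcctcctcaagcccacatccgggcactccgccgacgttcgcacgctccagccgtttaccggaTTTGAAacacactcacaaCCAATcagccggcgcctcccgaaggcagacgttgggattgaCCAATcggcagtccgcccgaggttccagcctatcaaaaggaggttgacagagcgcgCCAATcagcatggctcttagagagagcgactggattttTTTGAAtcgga
Kif4: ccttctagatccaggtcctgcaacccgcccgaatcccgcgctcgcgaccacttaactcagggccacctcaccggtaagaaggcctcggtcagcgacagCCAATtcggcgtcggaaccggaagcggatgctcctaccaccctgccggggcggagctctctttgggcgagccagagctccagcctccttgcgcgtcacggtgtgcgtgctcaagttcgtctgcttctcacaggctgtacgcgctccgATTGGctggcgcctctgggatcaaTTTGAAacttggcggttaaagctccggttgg
Mcm3 holds 2 E2F matches, Ect2 3 CCAAT and 2 CHR matches, and Kif4 2 CCAAT matches and 1 CHR match. Ect2, a regulator of cytokinesis, had 9.9 and 9.6 CPM in PLA against 42.7, 80.7 and 183 CPM (-3.18 ± 0.192, adjusted p = 4.10e-04). Kif4, a kinesin of the mitotic chromosomes, had 6.91 and 6.75 CPM in PLA against 31.1, 62.8 and 87.1 CPM (-3.04 ± 0.202, adjusted p = 4.67e-04). An E2F form was found in 15 of 34 S phase genes with a promoter (44.1%) against 4.28% of tested genes. CCAAT and CHR were each found in 25 of 33 G2 and M phase genes (75.8%), against 43.0% and 15.2% of tested genes. CCAAT was as common in the MHC class I (75.0%) and class II (80.0%) lists, which mostly rose. It was in 61.8% of S phase, 27.0% of interferon-stimulated, 27.3% of GTPase and 32.1% of ribosome biogenesis genes. CHR was in 45.5% of GTPase genes and at most 16.2% of the other lists searched.

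The inhibitors of the cycle did not move as 1 group. Of 28 inhibitors and p53 targets 8 rose (28.6%, against 15.8% of all genes) and 4 fell (14.3%, against 12.3%), with a median of 0.05. The 8 became 3 and 3 without a PLA library while the 4 became 1 and 1. The 4 became 2 without replicate 1 of PL1, and 2 without either library of PL12. Cdkn1a, the p21 inhibitor, had 561 and 573 CPM in PLA against 108, 240 and 330 CPM in the others (1.40 ± 0.125, adjusted p = 8.78e-04). Cdkn2a, which encodes p16 and p19, had 34.1 and 33.8 CPM in PLA against 4.73, 8.45 and 15.1 CPM (1.92 ± 0.194, adjusted p = 0.00115). Cdkn2b, the p15 inhibitor beside it, had 46.0 and 43.4 CPM in PLA against 19.3, 24.4 and 42.0 CPM (0.80 ± 0.187, adjusted p = 0.0187), and did not pass without any 1 library of PLA or of PL12. Mdm2, a p53 target, did not pass, with 119 and 116 CPM in PLA against 99.1, 145 and 175 CPM, and Cdkn2c fell (-1.34 ± 0.263) but did not pass without either PLA library.

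Ribosome biogenesis genes fell in 22 of 32 cases (68.8%, against 12.3% of all genes) and rose in 0, with a median of -0.82. The 22 became 6 and 6 without a PLA library. Npm1, nucleophosmin, had 559 and 523 CPM in PLA against 664, 1020 and 1455 CPM as the lowest, median and highest of the others (-0.87 ± 0.181). Fbl, fibrillarin, which methylates ribosomal RNA, had 78.8 and 79.0 CPM in PLA against 119, 186 and 219 CPM (-1.18 ± 0.292, adjusted p = 0.0232). Nop56, its partner, had 129 and 130 CPM in PLA against 124, 153 and 303 CPM and was not kept. Npm1 and Fbl did not pass without either PLA library, nor Fbl without replicate 2 of PL12. The differences were smaller than those of the cell division genes, and the list mean of log2(CPM + 1) was 5.86 and 5.85 in PLA and 6.11 to 6.93 in the others.

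Squamous and cornified genes mostly overlapped between PLA and the others. Of 35 squamous genes 6 rose (17.1%) and 1 fell (2.86%), with a median of 0.50. Of 37 tested cornified genes 6 rose (16.2%) and 3 fell (8.11%), with a median of 0.63. The shares that rose were close to the 15.8% of all genes, and those that fell were under 12.3%. By the test alone, 12 squamous genes were called higher and 4 lower, where 20.5% and 14.8% of all genes were. The 6 squamous genes became 2 and 3 without a PLA library, and the 3 cornified genes became 0 and 0 without a PLA library and 5 without replicate 2 of PLA4. Krt17, a keratin of activated basal cells, had 2465 and 2338 CPM in PLA against 80.5, 699 and 1080 CPM (2.56 ± 0.201, adjusted p = 6.66e-04). Krt16, a keratin of wounded and hyperproliferative epidermis, fell, with 10.8 and 9.85 CPM in PLA against 11.6, 156 and 1118 CPM (-3.44 ± 0.735, adjusted p = 0.0140). Its lowest other library lay close to PLA, and it did not pass without either PLA library. Sprr1a, a precursor of the cornified envelope, had 710 and 691 CPM in PLA against 30, 148 and 190 CPM (2.89 ± 0.121, adjusted p = 2.61e-04), and Tgm1, the enzyme that crosslinks that envelope, rose with it (2.86 ± 0.146).

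Genes of other lung lineages were read above the others in PLA in part. Of 22 tested members of 32 listed, 7 rose (31.8%, against 15.8% of all genes) and 0 fell (median 1.67). The 7 became 2 and 2 without a PLA library and 11 without replicate 2 of PL1. Cyp2f2, a cytochrome of club cells, had 447 and 466 CPM in PLA against 0.0345, 5.34 and 168 CPM in the others (5.78 ± 0.950, adjusted p = 0.00581). Hopx, a homeodomain protein known from alveolar type 1 cells, had 102 and 99.2 CPM in PLA against 0.564, 5.07 and 15.2 CPM (4.20 ± 0.749), and did not pass without either PLA library. Scgb1a1, the defining club cell secretoglobin, was at 0 in all 8 libraries. Muc5b, an airway mucin, had 4.16 and 3.70 CPM in PLA against 0.0345, 0.677 and 2.44 CPM (2.89 ± 0.902, adjusted p = 0.0484), close to the threshold, and kept its call in 8 of 16 alternatives, losing it without any 1 library of PLA, PL12 or PLA4.

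Of 33 tested mesenchymal genes 2 rose (6.06%, against 15.8% of all genes) and 4 fell (12.1%, against 12.3%), with a median of -1.53. The 4 became 10 without replicate 1 of PL1, 7 without replicate 2 of PLA4 and 1 and 1 without a PLA library, and the 2 became 4 without replicate 2 of PL1 or replicate 1 of PLA4. Vim, vimentin, was read at 3 and 4 counts in PLA, or 0.0244 and 0.0339 CPM, against 0.242, 10.6 and 61.6 CPM in the others, and did not pass (adjusted p = 0.0696). Tnc, the matrix protein tenascin C, had 38.2 and 35.7 CPM in PLA against 40.6, 142 and 1640 CPM (-2.70 ± 0.319), and Inhba, a subunit of activin, had 15.9 and 14.9 CPM in PLA against 61.7, 312 and 614 CPM (-4.54 ± 0.985), a call lost without either PLA library. Those that rose were Pdpn and Axl. Axl, a receptor tyrosine kinase, rose, with 548 and 547 CPM in PLA against 80.1, 137 and 220 CPM (2.06 ± 0.256, adjusted p = 0.00222). Cdh1, E-cadherin, had 788 and 807 CPM in PLA against 631, 713 and 789 CPM, overlapping the others. Of 29 junction genes 6 rose (20.7%, against 15.8% of all genes) and 2 fell (6.90%, against 12.3%). The 6 became 1 and 1 without a PLA library, 3 and 3 without a PL12 library and 3 without replicate 2 of PLA4, and the 2 became 0 and 0 without a PLA library and 1 and 1 without a PL12 library.

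**Figure D3:**
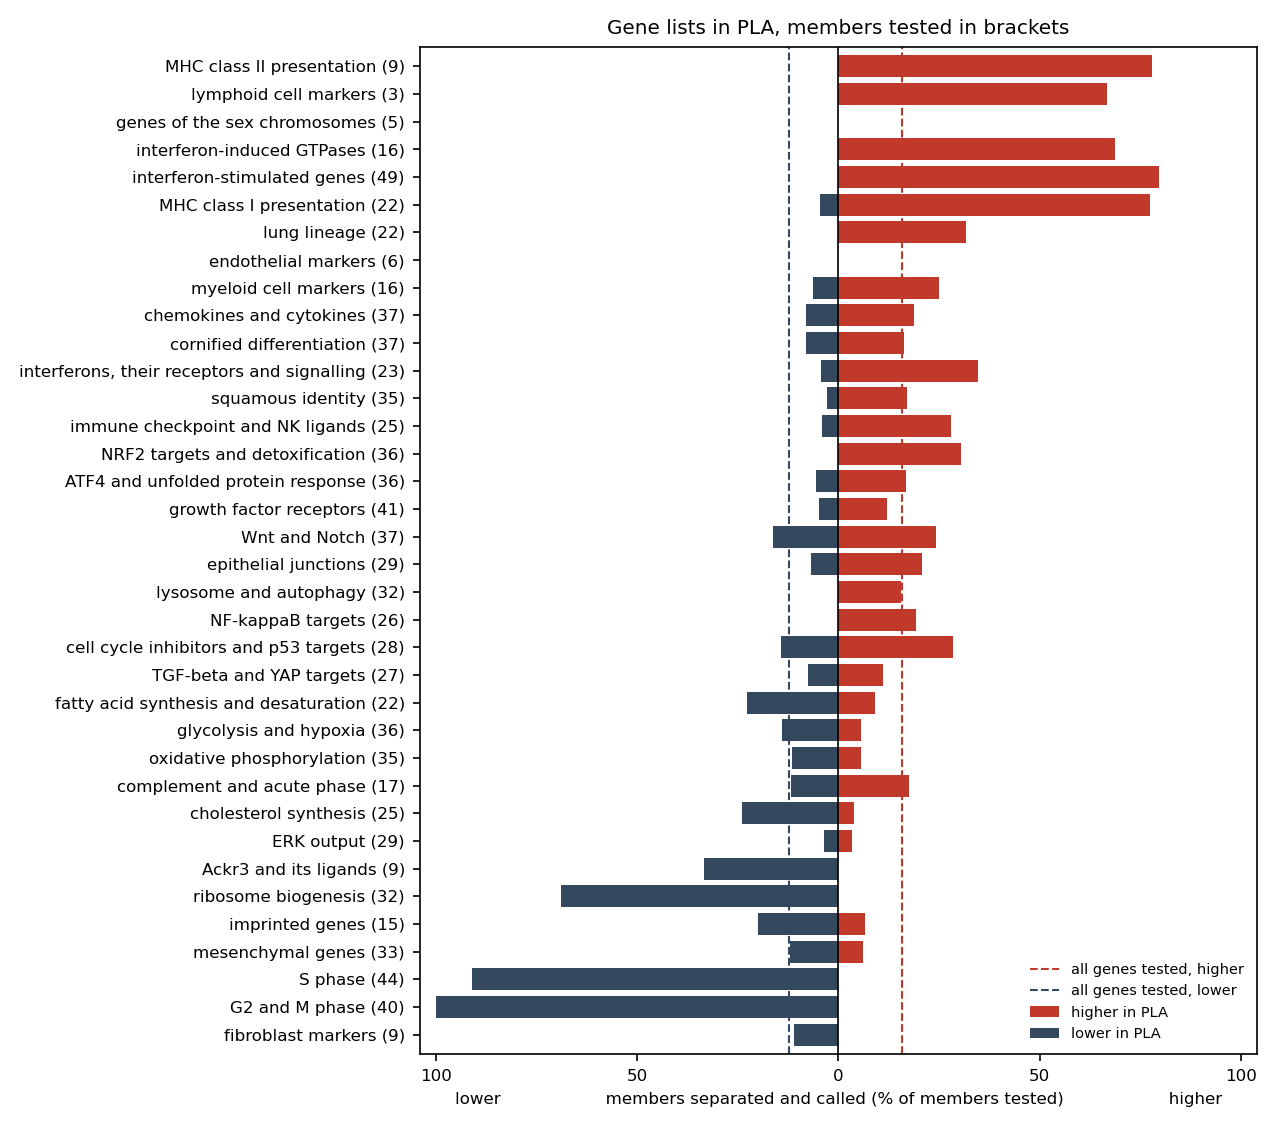
Share of the tested members of each of 36 gene lists that fell (left) or rose (right) in PLA, in percent, sorted by the median log2 fold change, with dashed lines at the shares over all genes, 12.3% and 15.8%. Interferon-stimulated genes, both MHC lists and the GTPases stand at 68.8% to 79.6% on the right, and G2 and M phase at 100% on the left.

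Cytokine genes rose or fell one by one. Of 37 tested chemokines and cytokines 7 rose (18.9%, against 15.8% of all genes) and 3 fell (8.11%, against 12.3%), with a median of 0.70. The 7 became 2 and 2 without a PLA library and 11 without replicate 1 of PLA4, and the 3 became 0 without either library of PL12 or of PLA. Ppbp, the neutrophil-attracting chemokine CXCL7, had 11374 and 11352 CPM in PLA against 621, 1617 and 4177 CPM as the lowest, median and highest of the others (2.77 ± 0.417, adjusted p = 0.00431). Pf4, the platelet factor gene beside it on chromosome 5, had 2.45 and 2.12 CPM in PLA against at most 0.524 CPM (3.42 ± 0.451). Il33, an alarmin of epithelial nuclei, had 2251 and 2239 CPM in PLA against 20, 544 and 1001 CPM (2.84 ± 0.523), and did not pass without either PLA library. Ppbp and Il33 were abundant in PLA and also read in every other line. Tnf had 54.6 and 53.5 CPM in PLA against 1.40, 9.95 and 25.3 CPM (2.99 ± 0.261, adjusted p = 8.40e-04). Those that fell were Cxcl12, Il24 and Spp1, and Spp1, osteopontin, had 0.122 and 0.178 CPM in PLA (-8.16 ± 2.16). Cxcl10, an interferon-induced chemokine, lay above the others, with 12.8 and 11.9 CPM in PLA against at most 5.10 CPM, and did not pass (adjusted p = 0.0572).

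NF-kappaB targets rose in 5 of 26 tested cases (19.2%, against 15.8% of all genes) and fell in 0, with a median of 0.07. The 5 became 2 and 2 without a PLA library and 2 and 3 without a PL12 library, and 3 fell without replicate 2 of PLA4. Icam1, an adhesion molecule for leukocytes, had 105 and 102 CPM in PLA against 9.45, 13.7 and 33.8 CPM (2.63 ± 0.159, adjusted p = 4.10e-04), and Nfkbia, the inhibitor of the pathway and its target, 269 and 259 CPM against 75.2, 93.8 and 127 CPM (1.43 ± 0.0975, adjusted p = 4.76e-04). The share of the list that rose was near that of all genes. Of 25 tested checkpoint genes and ligands of NK cell receptors 7 rose (28.0%) and 1 fell, and the 7 became 4 and 4 and the 1 became 0 and 0 without a PLA library, while 2 fell without replicate 2 of PL1. Cd274, the checkpoint ligand PD-L1, had 14.4 and 14.7 CPM in PLA against 0.875, 1.67 and 2.48 CPM (3.13 ± 0.340, adjusted p = 0.00143). Nectin3, an adhesion protein and ligand of lymphocyte receptors, was read at 0 and 0.00846 CPM in PLA, while the others ran from 0.443 to 11.4 CPM.

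Of 36 tested NRF2 targets and detoxification genes 11 rose (30.6%, against 15.8% of all genes) and 0 fell, with a median of 0.44. The 11 became 6 and 6 without a PLA library, 7 and 7 without a PL12 library and 20 without replicate 1 of PLA4, and 1 or 2 fell without a PL1 library or replicate 2 of PLA4. Ephx1, an epoxide hydrolase, had 501 and 493 CPM in PLA against 97.0, 152 and 222 CPM (1.73 ± 0.198, adjusted p = 0.00171). Aldh3a1, an aldehyde dehydrogenase, had 131 and 127 CPM in PLA against at most 96.2 CPM (2.12 ± 0.193). Nqo1, a quinone reductase and classical NRF2 target, had 7.14 and 6.32 CPM in PLA against 0.138, 0.299 and 3.40 CPM (3.66 ± 0.768) and did not pass without either PLA library or replicate 2 of PL12, while Gclc, which makes glutathione, overlapped, with 123 and 127 CPM in PLA against 36.9, 108 and 324 CPM.

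Of 25 cholesterol synthesis genes 6 fell (24%, against 12.3% of all genes) and 1 rose. The 6 became 2 and 2 and the 1 became 0 and 0 without a PLA library, and the 6 became 2 and 2 without a PL12 library. Of 22 tested genes of fatty acid synthesis 5 fell (22.7%, against 12.3%) and 2 rose (9.09%, against 15.8%). The 5 became 3 and 3 without a PLA library. The 2 became 1 without any 1 library of PLA or of PL12 and 4 without replicate 1 of PLA4. Fasn, the fatty acid synthase, had 137 and 142 CPM in PLA against 257, 276 and 295 CPM (-0.98 ± 0.104, adjusted p = 0.00137). Of 36 genes of glycolysis and hypoxia 5 fell (13.9%, near the 12.3% of all genes) and 2 rose (5.56%, against 15.8%). The 5 became 0 and 0 without a PLA library and 11 without replicate 1 of PLA4, and the 2 became 0 and 0 without a PLA library, 1 and 1 without a PL12 library and 4 without replicate 2 of PL1. Vegfa, the angiogenic factor, rose, with 791 and 792 CPM in PLA against 66.6, 198 and 405 CPM (1.90 ± 0.303), while the glycolytic enzymes Pgk1, Ldha and Pkm fell by 0.81, 0.83 and 0.89 on the log2 scale. All 4 calls were lost without either PLA library. Of 35 genes of oxidative phosphorylation 4 fell (11.4%) and 2 rose (5.71%), both under the shares of all genes (12.3% and 15.8%). The 4 became 1 and 1 without a PLA library, 1 and 2 without a PL12 library, 7 and 8 without a PLA4 library and 8 without replicate 2 of PL1, and the 2 became 0 without either PLA library, replicate 1 of PL12 or replicate 2 of PL1 and 1 without replicate 2 of PL12.

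Genes of Wnt and Notch signalling moved in both directions. Of 37 tested, 9 rose (24.3%, against 15.8% of all genes) and 6 fell (16.2%, near the 12.3% of all genes). The 9 became 4 and 4 and the 6 became 2 and 2 without a PLA library. Wnt5a, a ligand of the pathway branch that does not use beta-catenin, had 156 and 166 CPM in PLA against 26.5, 36.3 and 48.1 CPM (2.17 ± 0.196, adjusted p = 9.05e-04). Axin2, a target of beta-catenin, fell (-2.34 ± 0.389) but did not pass without either PLA library, and Hey1, a target of Notch, fell, with 0.106 and 0.0931 CPM in PLA against 1.11, 1.26 and 1.51 CPM (-3.66 ± 0.330, adjusted p = 8.96e-04). Growth factor receptors rose in 5 of 41 tested cases (12.2%) and fell in 2 (4.88%), under the 15.8% and 12.3% of all genes. Fgfr3 (2.34 ± 0.242) and Mst1r (3.70 ± 0.489) were among the higher ones. The 5 became 3 and 3 without a PLA library and 8 and 8 without a PLA4 library, and the 2 became 0 and 0 without a PLA library, 1 without replicate 2 of PL12 and 6 without replicate 1 of PL1.

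Several lists lay close to or under the shares of all genes, of which 15.8% rose and 12.3% fell. ERK output genes rose in 1 and fell in 1 of 29 cases (3.45% each), and Dusp6, a phosphatase that reports ERK activity, had 70.4 and 70.2 CPM in PLA against 24.5, 75.3 and 94.7 CPM. Without any 1 library of PLA or replicate 2 of PL12 both ERK calls were lost, without replicate 1 of PL12 the higher one was, and 2 rose without replicate 2 of PL1 and 2 fell without replicate 2 of PLA4. Targets of TGF-beta and YAP rose in 3 and fell in 2 of 27 cases, against 1 and 0 without either PLA library and 1 lower without replicate 2 of PL12. Complement and acute phase genes rose in 3 and fell in 2 of 17, against 1 and 1 without replicate 1 of PLA and 0 and 1 without replicate 2. ATF4 and unfolded protein response genes rose in 6 and fell in 2 of 36, and the 6 became 1 and 1 without a PLA library, 2 and 3 without a PL12 library and 17 without replicate 2 of PL1. The 2 became 0 and 0 without a PLA library, 1 and 1 without a PL12 library and 4 and 4 without a PLA4 library. Lysosome genes rose in 5 and fell in 0 of 32, and the 5 became 0 and 0 without a PLA library, 2 and 2 without a PL12 library, 3 without replicate 2 of PLA4 and 8 without replicate 2 of PL1. The shares of these lists ran close to or under those of all genes.

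The differences were not spread evenly over the genome. Of 833 tested genes on chromosome 13, 271 fell (32.5%, against 12.3% of all genes) and 28 rose (3.36%, against 15.8%). A negative log2 fold change was found in 79.0%. The median was -0.64 on the chromosome against 0.02 over all genes, and it was -0.80 against PLA4, -0.55 against PL1 and -0.67 against PL12. These 3 comparisons share the PLA libraries. All 12 bins of 10 Mb with 20 or more genes had negative medians, from -1.28 to -0.41, so no such bin lay above 0. Unc5a, a netrin receptor among the 15 genes with the widest gap upwards, lies on this chromosome.

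Chromosome 17 differed the other way. Of its 901 tested genes 301 rose (33.4%, against 15.8% of all genes) and 47 fell (5.22%, against 12.3%). The median was 0.48, and all 9 bins were positive, from 0.19 to 0.66. The chromosome carries the MHC, and without 31 MHC and interferon genes the median was 0.45 and 31.7% rose. It was 0.55 against PLA4, 0.49 against PL1 and 0.23 against PL12. Chromosome 5 was higher in part, with a median of 0.45 over 1228 genes (0.24 with counts summed per line) and bins from -0.34 to 1.04, 11 positive and 3 negative. Its medians were 0.52 against PLA4, 0.62 against PL1 and 0.05 against PL12, so PL12 lay near PLA there. Of the others, chromosome 14 had a median of 0.31 and chromosome 3 of -0.27. Copy number was not measured in these libraries.

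**Figure D4:**
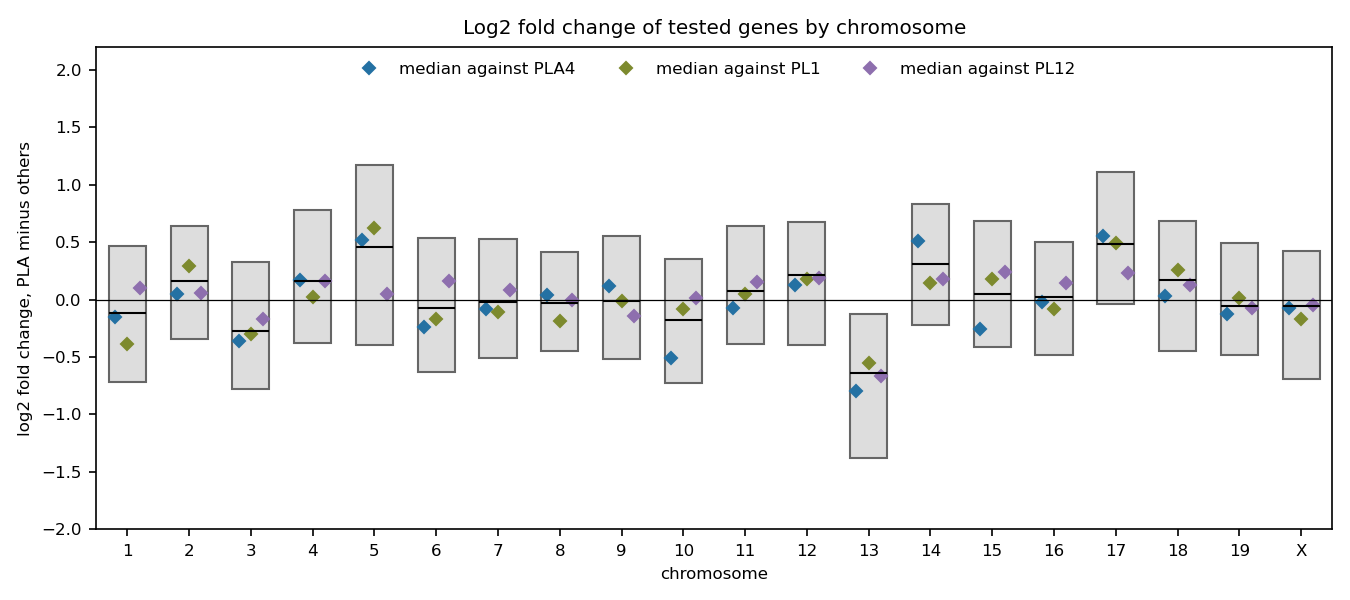
Log2 fold change of PLA against the mean of the other lines for the tested genes of each chromosome, as quartile boxes with the median as a line, and diamonds for the medians against PLA4, PL1 and PL12. Chromosome 13 lies low, at -0.64, and chromosomes 17 and 5 high, at 0.48 and 0.45.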

How the data were processed

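Total RNA of 4 cell lines, 2 libraries per line, was made into libraries with SMARTer cDNA and Nextera XT, per the labels' protocols; strand is not stated there. The authors deposited expected counts per gene, which RSEM estimates and which need not be whole, and TPM. The submitters' processing notes name the build GRCm38 and the tools STAR, RSEM, DESeq2 and FastQC, with no version and no annotation release. Of the deposited expected counts 14.2% were not whole, and all were rounded. The deposited TPM, scaled to a fixed total per library, served as an alternative scaling for the separation.

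Genes were filtered with filterByExpr (minimum count 10, minimum total 15), scaled with TMM and fitted in edgeR 4.0.16 (limma 3.58.1, R 4.3.3) with 1 mean per line over all 8 libraries, which leaves 4 residual degrees of freedom. The test was the quasi-likelihood test of PLA minus the mean of PLA4, PL1 and PL12, and the standard error is the size of the log2 fold change divided by the root of F. The 3 other lines share 1 estimate of spread with PLA. Separation used CPM with TMM factors. Named genes are Ackr3, the 15 higher and 15 lower genes kept and called with the widest gap on log2(CPM + 0.5), limited to plain symbols and means from 5 CPM up, up to 4 members per list by smallest p, members needed to describe a list, and the 2 genes nearest the edge of the rule. Some genes whose single values are uncertain because near copies exist are named as such. The naming is not complete, so shared reads may also affect other members of gene families.

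The members and the 36 gene lists were chosen with earlier results of these data known, so lists are described by counts and medians beside those of all genes, with no set test. Shares are of tested members, and a gene expressed in PLA alone passes the filter. Summed levels of marker lists are in CPM. Positions are from GENCODE mouse release 21 (GRCm38), which placed 18611 of the tested genes, and promoters from RefSeq (GRCm38.p6). The code was tested on simulated data. Alternatives were DESeq2 1.42.0, its size factors, other filters, a block for the replicate number, counts summed per line, leaving out libraries, and other scalings for the separation. Tables used Python 3.11.15, pandas 2.3.3, numpy 2.4.6 and matplotlib 3.10.9.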

Additional observations from a re-analysis of the deposited data

How the results depend on the processing

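With counts summed per line, 0 genes were called higher and 0 lower, and 0 and 0 were kept and called (lowest adjusted p 0.410, with 1783 of 20829 genes under an unadjusted p of 0.05), since PLA is then 1 profile with 2 residual degrees of freedom. Leaving out 1 library gave 925 to 4723 genes called higher and 673 to 3576 lower, 815 to 3573 kept and called higher and 657 to 2894 lower, and 3702 to 4308 kept above and 3298 to 4031 kept below. The low ends of the calls came without a PLA library, and without replicate 1 or 2 of PL12 1781 or 1730 were called lower. Leaving out replicate 1 of PL1 with replicate 2 of PLA4 gave 6091 called higher and 5519 lower, with 3776 kept and called lower, and leaving out replicate 2 of PL1 with replicate 1 of PLA4 gave 6924 and 5071 called and 4593 and 3546 kept and called. In both of these fits PL1 and PLA4 have 1 library each, so the residual spread comes from PLA and PL12 alone. The cause of the higher counts was not tested. A fold over 2 left 2315 higher and 1496 lower called, and 1852 and 1276 kept and called. A call against each of the 3 lines left 948 and 1027. A gap of at least 2-fold left 852 above and 757 below, and expected counts with no scaling left 1120 below.

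The medians of chromosomes 13, 17 and 5 kept their sign. For chromosome 13 it was -0.73 with summed counts, -0.71 without replicate 1 of PL1 and replicate 2 of PLA4, -0.57 over genes with an average log2 CPM of at least 1, and -0.74 to -0.59 with 1 library left out. For chromosome 17 it was 0.37 with a filter of 1 CPM in 2 libraries, 0.39 with summed counts, 0.42 over genes with an average log2 CPM of at least 1, and 0.39 to 0.50 with 1 library left out. For chromosome 5 it was 0.51, 0.24 and 0.58 in the same order, and 0.37 to 0.51 with 1 library left out.

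Same-numbered libraries of different lines did not deviate together (correlations of deviations -0.194 to 0.0148), so the numbers do not pair them. A replicate block gave 3330 genes called higher and 2247 lower, and 2653 and 1940 kept and called. DESeq2 gave no adjusted p for 362 genes. The 214 named genes that passed the test kept direction and call in 2935 settings and lost the call in 478, and Kdm5d and Ddx3y reversed with summed counts (log2 fold changes of -0.82 and -0.96). Among 12 named genes that did not pass, reversals occurred for Gclc, with -0.02 in DESeq2 and with its size factors, -0.07 with a filter of 1 CPM in 2 libraries, -0.09 with summed counts, -0.50 without replicate 1 of PL1 and replicate 2 of PLA4, 0.92 without the other library of each and -0.27 to 0.44 with 1 library left out. They occurred for Krt14, with -0.37 with summed counts, -0.09 without replicate 2 of PL1 and replicate 1 of PLA4 and -0.13 to 0.37 with 1 library left out, and for Xist, at -1.90 to 0.20 with 1 library left out. Every list had 0 members called with summed counts. In the shallowest library 3 counts are 0.0614 CPM, so levels under this cannot be ordered.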

Other observations

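Several gene families that share a name stem moved in PLA, and some of their members, such as Krt5 and Ces2e, are also in the lists above. They were picked after their values were seen, from 247 families of at least 8 tested members, and carry no test as a group. Of all genes tested 15.8% rose and 12.3% fell. Of 11 carboxylesterases of the Ces family, which hydrolyse drugs and lipid esters, 7 rose (63.6%) and 0 fell, with a median log2 fold change of 2.39. Ces1d had 30.4 and 28.2 CPM in PLA and between 0.0345 and 8.23 CPM in the others (5.47 ± 0.549, adjusted p = 0.00113 in edgeR's quasi-likelihood test). Of 9 Wfdc genes, small secreted protease inhibitors, 5 rose (55.6%) and 0 fell, and of 32 keratin genes 13 rose (40.6%) and 1 fell. On the lower side stood the nucleoporins of the nuclear pore (15 of 21 or 71.4% fell and 1 rose, median -0.95) and the augmin subunits of the spindle named Haus (5 of 8 or 62.5% fell, median -1.34). Of 21 Pcdhb protocadherins, near copies whose reads may be shared by the counting, 8 fell (38.1%) and 1 rose.

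Genes within 500 kb of the 30 genes with the widest gap moved the same way in 61 of 317 cases for the higher genes (19.2%, against 15.8% of all genes) and in 18 of 87 for the lower ones (20.7%, against 12.3%). Without H2-Q7, which lies in the MHC, the cases for the higher genes were 40 of 247 (16.2%). Genes near both Gdf10 and Mmrn2 are counted for each. Pairs of neighbours included Slc47a1 with Slc47a2, Gdf10 and Mmrn2 with Sncg and Anxa8, Cyp2a5 with Cyp2f2, and Armcx3 with Armcx1, Armcx4 and Armcx6. Anxa8, Armcx1, Armcx4 and Armcx6 lost their calls without either PLA library, Armcx4 and Armcx6 without either PL12 library, Anxa8 without replicate 2 of PL12, and Armcx6 without either PLA4 library.

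Of 15 tested imprinted genes 3 fell and 1 rose, and the 3 became 1 and 1 without a PL12 library and 0 and 0 without a PLA library. Snrpn, Grb10 and Asb4, the 3 that fell, were at 0 in both PLA libraries, and Snrpn was at 0.0232 to 42.1 CPM in the others. Snrpn kept its call in 8 of 16 alternatives and lost it also without either PL1 library. Airn had 2.48 and 2.73 CPM in PLA and at most 1.25 CPM in the others (3.96 ± 0.405, adjusted p = 0.00120 in edgeR's test). It overlaps Igf2r on the opposite strand, so without strand its reads cannot be told from those of Igf2r. Genes of the Y chromosome were read in PLA, with Ddx3y at 14.9 and 14.3 CPM and Kdm5d at 9.18 and 9.20 CPM, and Xist at 0.244 and 0.245 CPM. In PLA4 Xist was at 208 and 385 CPM and Kdm5d at 0 and 0.00692 CPM. Kdm5d was at 49.4 and 46.4 CPM in PL1 and at 2.19 and 1.72 CPM in PL12.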
